A study of Mus musculus with 24 samples.

Results

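A2C12 is 1 of 11 tumour cell lines of this series and is represented by 3 of its 24 arrays: an unnumbered array and arrays labelled replicate 1 and replicate 2. It was set against the other 10 tumour lines, which have 19 arrays: 3 arrays each for B3, cRAF_cMYC, gammaA7 and gammaB8, 2 for A2B1 and 1 each for betaD5, betaD10, gammaA3, gammaD1 and gammaD12. Its arrays were found by the line name in their titles, with no measured value in the rule. The arrays titled gammaB8 carry the name gammaA8 in another label field, and the title was used.

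All 11 lines were grown out of lung tumours of mice that carried both a c-Myc and a c-Raf transgene and were 8 months old, and all were passaged weekly in serum medium, for up to 50 passages. The 2 control arrays hold alveolar type II cells isolated from healthy animals without the transgenes, and they serve here as a reference level only. They were not alike: the type II markers Slc34a2 and Fabp5 gave 58.5 and 1242 on the first control array and 5029 and 484 on the second. Genes of other cells were bright too, such as Scgb1a1 of club cells (5729 and 10348) and, on the second, the immunoglobulin gene Ighm (15.4 and 3687). A level like that of the controls is therefore not shown to be that of type II cells. A2C12 is 1 line, the sources used here do not name its mouse, its passage at harvest or the promoter of either transgene, and nothing in the labels says that its 3 arrays came from separate cultures. The p-values below therefore place this line among the other lines and do not describe a genotype, and the spread between its arrays may be technical.

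c-Raf is a kinase that passes growth signals to the MAP kinase cascade, and c-Myc switches on genes for cell growth and proliferation. Alveolar type II cells are the surfactant-making epithelial cells of the lung. Mesothelial cells cover the outer surface of the lung, carry both epithelial and mesenchymal traits, and are marked by genes such as Wt1, Upk3b, Msln and Bnc1. Imprinted genes are expressed from the maternal or the paternal copy only.

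Each probe set has an intensity signal on a linear scale, which the authors had scaled to one trimmed mean per array, and differences are given as log2(signal + 32) in A2C12 minus the mean of the other 10 line means, with the standard error (SE). The 32 added to each signal shrinks the differences of dim genes. Signals quoted for another line are means of the signals of its arrays, while differences and calls use means of log2 values. The lowest or highest line can therefore differ between the 2 scales where the arrays of a line disagree. The median signal was 54.5 to 60.1 on the A2C12 arrays, 53.2 to 75.5 on the other lines' arrays and 93.8 to 107.7 on the control arrays. The actin 3' to 5' signal ratio, which rises as RNA degrades, was 1.03 to 1.17 in A2C12, 1.08 to 1.32 in the other lines and 1.47 to 1.64 in the controls. Some arrays stood apart. After centring each probe set over the tumour arrays, replicate 1 of cRAF_cMYC correlated with replicate 1 of gammaA7 at 0.791 and their replicate 2 arrays at 0.867, across the labels, and the 2 arrays of A2B1 correlated at only 0.296. Counts without these arrays are given beside the main ones.

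The 3 A2C12 arrays were more like each other than like any array of another line. Replicates 1 and 2 correlated at 0.916 and differed at least 2-fold for 23 tested probe sets. The unnumbered array correlated with them at 0.658 and 0.688 and differed at least 2-fold for 233 and 208 probe sets. The highest correlation of an A2C12 array with an array of another line was 0.315. These correlations are across probe sets, which are not independent replicates.

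Among the named genes called in A2C12, the largest changes were falls. The genes called lower included a retinal dehydrogenase, an NADPH oxidase subunit, a pair of imprinted genes, a set of mesothelial markers and collagens of types V and VI. Higher in it were galectin-3, a kappa class glutathione transferase, a chemokine scavenger receptor and the growth factors Hgf and Vegfa. Of 7215 tested probe sets, 44 were called higher in A2C12 (0.61%) and 73 lower (1.01%) by limma on line means, at an adjusted p under 0.05 and a difference of at least 2-fold. Counting 1 probe set per gene, 34 of 5496 genes were called higher (0.619%) and 61 lower (1.11%). These shares are the background for each count of called list members below. The error in this comparison is the spread among the other 10 lines, and A2C12, as 1 line, is assumed to vary as they do. At an unadjusted p under 0.05, 570 probe sets were higher and 593 lower. A second comparison took its error from the spread between repeat arrays of a line and asked whether A2C12 differed from the average line. It called 147 probe sets higher (2.04%) and 215 lower (2.98%), and those included all 44 and all 73 of the line comparison. Without the numbered arrays of cRAF_cMYC and gammaA7, 28 probe sets were higher and 47 lower between lines. Leaving out both lines gave 89 higher and 108 lower, leaving out A2B1 replicate 1 gave 49 and 89, and leaving out gammaA3 gave 29 and 62.

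**Figure D1:**
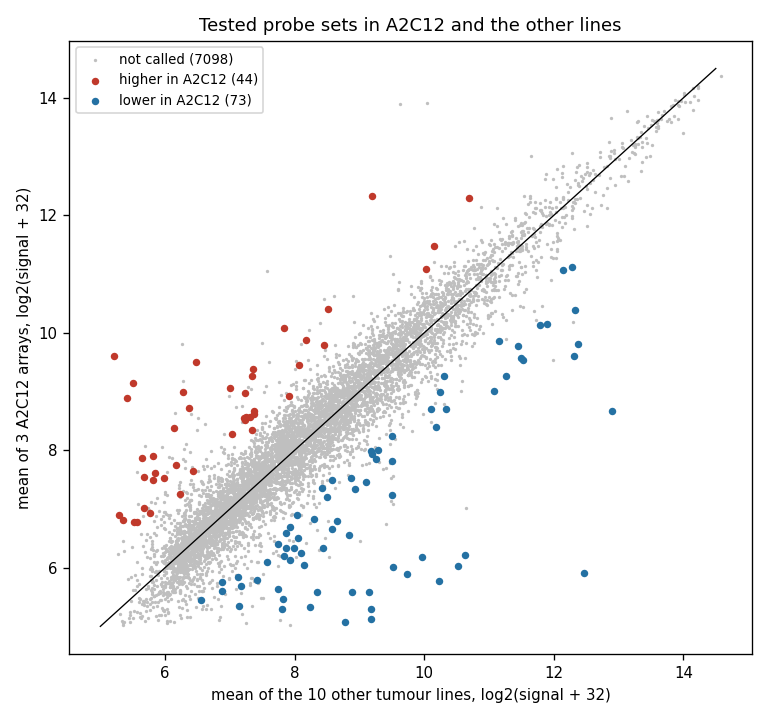
Each point is 1 of 7215 tested probe sets, at its mean over the 10 other tumour lines (x axis) and over the 3 A2C12 arrays (y axis), both as log2(signal + 32); the line marks equal levels. Red points are the 44 probe sets called higher and blue points the 73 called lower. The points farthest from the line lie below it.

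The call does not ask that every A2C12 array lie outside the other lines, though nearly every called probe set met that condition. Both rest on the same values, so the next counts describe the calls and are no separate support. For 42 of the 44 higher probe sets all 3 arrays lay above every other line mean, and for 72 of the 73 lower ones all 3 lay below. Over all tested probe sets 725 lay above and 662 below in this way. The same comparison for other lines with repeat arrays called 37 higher and 37 lower in A2B1, 0 and 1 in gammaB8, and 0 and 0 in each of B3, cRAF_cMYC and gammaA7. At an unadjusted p under 0.05 limma gave 524 higher and 579 lower in A2B1, near the numbers of A2C12, 91 and 74 in B3, 76 and 36 in cRAF_cMYC, 35 and 22 in gammaA7 and 60 and 66 in gammaB8. These comparisons share lines, and the counts were not tested against each other. Among the called genes, 5 of the 34 higher ones passed the filter on dim probe sets only through the A2C12 arrays and 19 of the 61 lower ones only through the other lines, so a low level in the other group was a condition for their being tested.

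The kind of array mattered for the number of calls. With only the unnumbered arrays, 1 per line, 77 probe sets were higher and 144 lower in A2C12. With only the numbered arrays, which leave A2C12 and 5 other lines, 6 were higher and 12 lower. Of 35 called genes that the naming rule picked, 6 were called with either kind of array alone: Aldh1a1, Cyba, Peg3, Ivns1abp and Col5a2, lower in A2C12, and Gstk1, higher. The same 6 genes were called under every other setting tried, apart from changes of the fold threshold. Without the numbered arrays of cRAF_cMYC and gammaA7, 14 of the 35 were not called: Ackr3, Aldh3a1, Col6a1, Col6a2, Egr2, Gata6, Ifit2, Lgals3, Mgst3, Mylk, Ptgis, Tes, Upk3b and Vegfa.

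Aldh1a1, which oxidises retinal to retinoic acid, showed the largest fall of all named genes. Its signal was 20.3, 94.2 and 1.27 on the A2C12 arrays (unnumbered, replicate 1, replicate 2). In the other lines the lowest line mean was 1852, the median 6944 and the highest 12345, and the control arrays gave 3779 and 7123. A2C12 was thus near the bottom of the scale for a gene that was among the bright ones in the 10 other lines and in both controls. The difference was -6.55 (SE 0.79, adjusted p = 0.00081), -6.86 with the unnumbered arrays and -6.29 with the numbered ones. On a list of 11 tested retinoid and aldehyde dehydrogenase genes, Aldh1a1 was called lower, Aldh3a1 higher and 9 were not called, with a median of 0.05. Over all tested genes 1.11% were called lower and 0.619% higher. Aldh7a1, a further aldehyde dehydrogenase outside that list, was called lower too (-1.64, SE 0.29, adjusted p = 0.014).

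Cyba, the membrane subunit p22phox that NADPH oxidases need, gave 39.3, 22.8 and 39.3 in A2C12. The other line means ran from 618 over a median of 1423 to 2836, and the controls gave 4587 and 2940. No A2C12 array came near the range of the other groups. The difference was -4.49 (SE 0.62, adjusted p = 0.0026), and a second Cyba probe set was called too, at -3.88. None of the other 13 tested NADPH oxidase and peroxide defence genes was called, and the median of all 14 was 0.00.

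Ivns1abp, a Kelch-repeat protein that binds actin, was at the bottom of the scale in A2C12, at 1.23, 7.00 and 0.921. Other lines ran from 315 over 580.5 to 787, a narrow range, and the controls gave 386 and 424. The difference was -4.06 (SE 0.39, adjusted p = 9.4e-05). Gnai1, an inhibitory G protein alpha subunit, had the same form, with 1.41, 2.72 and 1.31 in A2C12 against 205 to 707 in the other lines (-3.70, SE 0.67, adjusted p = 0.014). A second Gnai1 probe set stood at -2.18 and was not called (adjusted p = 0.059), and with the numbered arrays alone the first was not called either (-3.11, adjusted p = 0.39).

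A pair of imprinted genes, both expressed from the paternal copy, were lower. Peg3, a zinc finger protein, gave 70.6, 8.32 and 7.06 in A2C12, where the other lines ran from 805 over a median of 1167 to 1846. The controls, at 141 and 49.2, lay nearer to A2C12 than to the other lines. The difference was -4.45 (SE 0.29, adjusted p = 1.7e-06), the smallest adjusted p of any gene with a symbol, and both further Peg3 probe sets were called (-3.55 and -1.12). Sgce, which encodes epsilon-sarcoglycan, gave 104, 25.1 and 16.7 against 576 to 1775 in the other lines and 211 and 430 in the controls (-3.78, SE 0.53, adjusted p = 0.0026). In both genes the unnumbered array was the highest of the 3 and still below every other line. Of 11 tested imprinted genes these were the ones called, beside 1.11% called lower over all tested genes. The median over the 11 was -0.43, beside 0.02 over all tested genes. Igf2 went the other way without being called, at 760, 242 and 252 in A2C12 against 15.5 to 330 elsewhere (2.23, SE 0.60, adjusted p = 0.082).

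Gstk1, a glutathione transferase of mitochondria and peroxisomes, was the counterpart among the rises. Its A2C12 signals were 730, 462 and 444. The other lines ran from 3.15 over a median of 12.7 to 37.7, and the controls gave 174 and 578. The gene was thus close to background in all 10 other lines, and A2C12 had a level like that of the controls. The difference was 3.64 (SE 0.29, adjusted p = 1.3e-05). Of 18 tested genes of glutathione metabolism and the Nrf2 response none was called, with a median of 0.29; Gstk1 and the called microsomal transferase Mgst3 (1.92, SE 0.37, adjusted p = 0.017) are not on that list.

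The bases before the start site are shown for Peg3, Ivns1abp and Gstk1, the 3 called genes with the smallest adjusted p for which RefSeq sequence was used, because each was near background on one side of the comparison and well above it on the other. The sequences are from build GRCm38.p6, 250 bases up to the start, 5' to 3' on the gene's own strand. CG dinucleotides, the sites of DNA methylation, are in capitals. The window of Peg3 is chr7:6730420-6730669 on the minus strand, that of Ivns1abp is chr1:151344236-151344485 on the plus strand (the first of its listed starts) and that of Gstk1 is chr6:42245685-42245934 on the plus strand.
Peg3: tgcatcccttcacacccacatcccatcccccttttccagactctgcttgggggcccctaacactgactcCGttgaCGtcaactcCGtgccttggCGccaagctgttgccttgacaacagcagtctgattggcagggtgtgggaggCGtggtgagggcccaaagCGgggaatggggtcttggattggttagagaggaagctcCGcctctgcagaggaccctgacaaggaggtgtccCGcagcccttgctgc
Ivns1abp: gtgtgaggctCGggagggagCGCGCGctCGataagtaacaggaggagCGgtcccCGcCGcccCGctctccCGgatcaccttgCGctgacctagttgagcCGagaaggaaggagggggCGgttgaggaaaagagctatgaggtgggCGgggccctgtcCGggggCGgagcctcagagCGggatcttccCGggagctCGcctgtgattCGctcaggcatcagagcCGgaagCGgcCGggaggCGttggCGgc
Gstk1: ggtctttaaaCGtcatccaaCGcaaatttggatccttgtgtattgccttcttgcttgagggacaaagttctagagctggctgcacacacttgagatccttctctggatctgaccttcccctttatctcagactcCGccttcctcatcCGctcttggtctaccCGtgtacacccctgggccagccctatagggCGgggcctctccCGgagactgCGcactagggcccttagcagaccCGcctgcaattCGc
The Peg3 window holds 8 CG dinucleotides, that of Gstk1 10 and that of Ivns1abp 25. The median was 17 over the 4473 tested genes with sequence, 14 over 44 lower genes and 11.5 over 26 higher genes. A GC box, searched as GGGCGG or its reverse complement CCGCCC, was found 4 times before Ivns1abp, 1 time before Gstk1 and 0 times before Peg3. It was present in 61.7% of the tested genes' windows, in 29 of the 44 lower and in 14 of the 26 higher ones, and in 32.7% of all 32851 promoter windows in the table. These counts describe the sequence only.

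**Figure D2:**
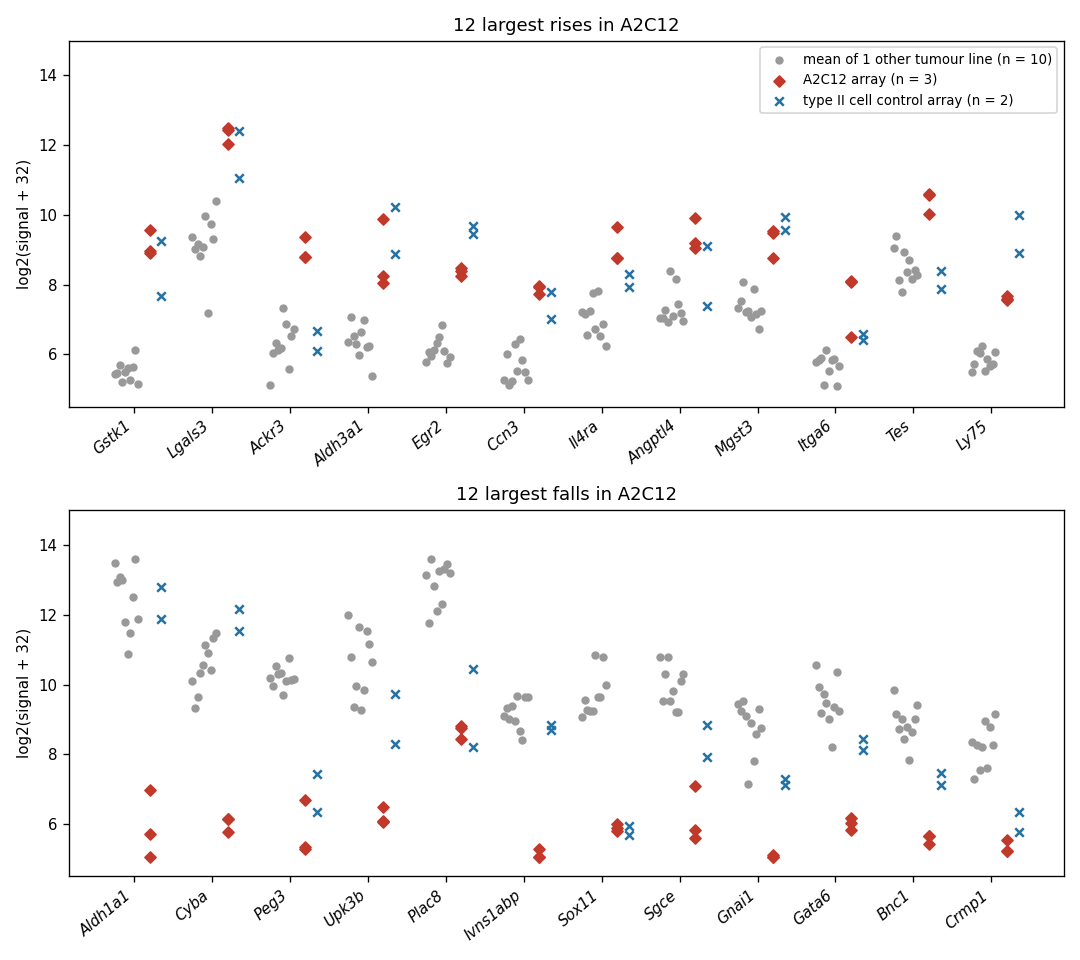
Level as log2(signal + 32) (y axis) of the 12 genes with the largest rises (top) and the 12 with the largest falls (bottom) among called genes with all 3 A2C12 arrays outside the other lines. Red diamonds are the A2C12 arrays, grey points the means of the 10 other lines and blue crosses the 2 type II cell control arrays. The A2C12 arrays lie above or below every grey point; the controls lie on either side.

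Mesothelial markers were the gene list with the most calls. Of 25 markers, 16 were on the array and 12 were tested; 6 of the 12 were called lower in A2C12 (Aldh1a1, Upk3b, Plac8, Bnc1, Cpe and Wt1), 0 were called higher and 11 of 12 lay below 0. Over all tested genes 1.11% were called lower and 48.3% lay below 0. The list median was -1.79, beside 0.02 over all tested genes, and -1.44 to -2.25 under the other scalings and offsets. The list, like the others, was chosen with earlier results of these data known. Without the numbered arrays of cRAF_cMYC and gammaA7, 4 of the 12 were called, with a median of -1.78. With unnumbered arrays only 4 were called, and with numbered arrays only 2. Wt1 was called in none of these 3 settings, and Cpe was not called with numbered arrays only. Upk3b, a uroplakin of mesothelial and bladder cells, gave 36.3, 57.4 and 34.8 in A2C12 against a lowest line mean of 585, a median of 2089 and a highest of 5022 (-4.41, SE 0.84, adjusted p = 0.017). Bnc1, a zinc finger transcription factor, gave 18.9, 18.7 and 11.0 against 263, 449 and 927 (-3.30, SE 0.49, adjusted p = 0.0041). For both genes A2C12 lay below the controls as well, which gave 282 and 818 for Upk3b and 144 and 108 for Bnc1.

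Wt1, the Wilms tumour transcription factor that marks mesothelium, was dim in all lines and dimmest in A2C12, at 20.9, 20.4 and 28.4 against 87.2 to 214 (-1.64, SE 0.35, adjusted p = 0.032). Plac8, a small cysteine-rich protein, was still well above background in A2C12, at 312, 404 and 421, but the other lines were at 3605 to 12553 (-4.23, SE 0.55, adjusted p = 0.0015). The controls, at 263 and 1355, overlapped A2C12 for Plac8. Cpe, a carboxypeptidase of the secretory pathway, was at 967, 1528 and 1507 against 3461 to 7383 (-1.95, SE 0.36, adjusted p = 0.015). Msln, mesothelin itself, was lower on all 3 arrays (22.6, 73.0 and 85.7 against 204 to 1389) but was not called (-2.56, SE 0.73, adjusted p = 0.10). Krt19, Pdpn, Igfbp6 and Cxadr overlapped the other lines. Members of the list are not all particular to mesothelium: Aldh1a1 is also on the list of club and ciliated cell markers and Pdpn on that of type I cell markers. Slpi gave different answers by probe set: its brightest tested one was at 0.32 and not called, and a dimmer one was called higher (2.09, SE 0.33, adjusted p = 0.007). Wt1, Cpe, Msln and Slpi were singled out after their values were seen. Gata6, a transcription factor of endoderm and mesoderm that is not on the list, was lower too, at 32.9, 39.9 and 25.1 against 475 to 1476 (-3.50, SE 0.60, adjusted p = 0.011), while its 2 dimmer probe sets were not called (-0.87 and -0.95). With unnumbered arrays alone neither Upk3b (-3.85, adjusted p = 0.13) nor Gata6 (-3.14, adjusted p = 0.13) was called.

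**Figure D3:**
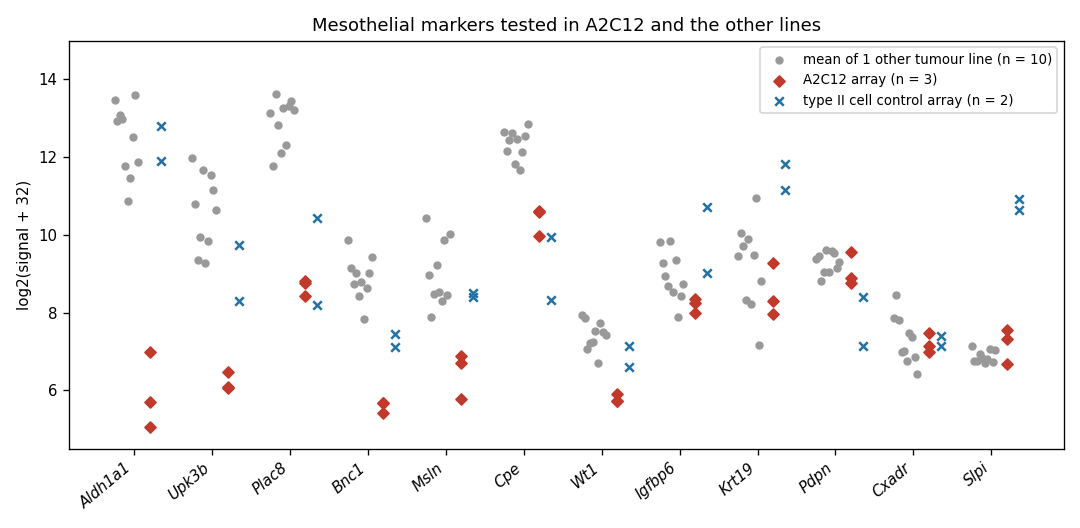
Level as log2(signal + 32) (y axis) of the 12 tested mesothelial markers, ordered by the difference between A2C12 and the other lines; red diamonds are the 3 A2C12 arrays, grey points the means of the 10 other lines and blue crosses the 2 control arrays. For the 7 markers from Aldh1a1 to Wt1 every A2C12 array lies below every other line, while the last 5 overlap.

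In bulk RNA of a line, fewer cells of one kind and less RNA per cell cannot be told apart. The defining type II cell marker Sftpc was at 36.4, 6.56 and 6.82 in A2C12, at 6.68 to 43.8 in the other lines and at 787 and 11196 in the controls. Only 5 of 12 type II markers on the array passed the filter, and 0 were called. The club cell secretoglobin Scgb1a1 was at 4.28, 4.60 and 22.6 in A2C12 and at 5729 and 10348 in the controls. Of the epithelial junction and keratin genes 10 of 27 on the array were tested and 0 were called (median -0.26); the simple epithelial keratin Krt8 was at 8.16, 67.2 and 60.5 against 3646 and 1467 in the controls, and Cdh1 at 82.1, 108 and 90.5 against 268 and 339. The labels call A2C12 a lung carcinoma line, and its Sftpc, Scgb1a1 and Krt8 signals, like those of the other lines, were far below those of the controls. Other keratins differed: Krt19 was at 583, 281 and 218 in A2C12 and reached 3003 in gammaB8, against 3570 and 2230 in the controls, and Krt13, not on the list, was called higher in A2C12 (58.2, 98.4 and 78.6 against 4.51 to 26.5, controls 18.95 and 4.11; 1.21, SE 0.23, adjusted p = 0.017). The leukocyte gene Ptprc, at 1.06, 1.06 and 1.95, and the endothelial gene Vwf, at 2.01, 3.00 and 1.97, were at the bottom of the scale. Of 22 myeloid markers on the array 5 were tested and 0 called; among these the macrophage receptor Csf1r was at 239, 123 and 92.1 against 31.1 to 197 in the other lines and 745 and 1018 in the controls (0.87, SE 0.50, adjusted p = 0.42). A second Csf1r probe set lay the other way (-0.28, SE 0.32, adjusted p = 0.73) and was not called. The part of leukocytes and endothelial cells in the results was not tested. The endothelial list had 3 of 17 members tested, of which Eng, a TGF-beta co-receptor that mesenchymal cells also carry, was called lower (962, 758 and 828 against 1771 to 3737; -1.67, SE 0.35, adjusted p = 0.025).

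Collagens were the second group with several calls. The list used holds fibrillar collagens, cross-linking genes and also type VI collagen, which is not fibrillar. Of its 20 tested genes, 3 were called lower (the fibrillar Col5a2 and the type VI chains Col6a1 and Col6a2) and 0 higher. Below 0 lay 16 of the 20, with a median of -0.63. Over all tested genes 1.11% were called lower and 48.3% lay below 0. In the comparison of arrays 8 of the 20 were lower, beside 2.98% of all tested probe sets. Without the numbered arrays of cRAF_cMYC and gammaA7, 1 of the 20 was called between lines, Col5a2. Col5a2, a chain of type V collagen, gave 614, 824 and 811 in A2C12 and 3663, 5336 and 6892 as lowest, median and highest of the other lines (-2.71, SE 0.31, adjusted p = 0.00044). Col6a1 and Col6a2, partner chains of type VI collagen, fell together: Col6a1 to 317, 548 and 652 from a lowest line mean of 1401 (-2.07, SE 0.36, adjusted p = 0.011), and Col6a2 to 91.9, 137 and 133 from 364 (-2.26, SE 0.41, adjusted p = 0.015). Type I collagen was split in size: Col1a2 stood at -2.46 (SE 0.65, adjusted p = 0.074) and Col1a1 at -0.55 (SE 0.37, adjusted p = 0.50), neither called.

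Of 14 tested basement membrane genes 0 were called between lines, and 1 was higher and 4 were lower between arrays, with a median of -0.41. Over all tested probe sets 2.04% were higher and 2.98% lower between arrays. Col4a1 and Col4a2, the main type IV collagen chains, lay below every other line on all 3 A2C12 arrays (569, 1202 and 1112 against 1982 to 4142 for Col4a1) and just missed the call (-1.37 and -1.36, SE 0.33 and 0.34, adjusted p = 0.051 and 0.059). The laminin linker Nid2 was at 1.00, 0.456 and 0.482 in A2C12 against 25 to 592, and its paralog Nid1 was higher than in every other line, at 315, 527 and 545 against 164 to 294. Neither was called (adjusted p = 0.23 for Nid2 and 0.093 for Nid1). The proteoglycan Dcn separated the kinds of array, at 658 on the unnumbered array and 32.4 and 17.5 on the numbered ones, against 319 to 5374 in the other lines (-3.61, SE 1.31, adjusted p = 0.20). Mylk, the myosin light chain kinase, was the 1 of 14 contractile genes called, at 38.8, 47.0 and 19.3 against 154 to 390 (-2.10, SE 0.41, adjusted p = 0.018), with a list median of -0.24 that turned to 0.08 with numbered arrays only.

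Among the rises, Lgals3, the galactose-binding lectin galectin-3, was the brightest. It gave 4141, 5729 and 5560 in A2C12, while the other lines ran from 418 over 641 to 1311 and the controls gave 5377 and 2082. A2C12 was thus at the level of the controls. The call was narrow (3.13, SE 0.75, adjusted p = 0.0495) and was lost in 21 of 30 settings, quantile normalization among them. On the log2 scale the lowest of the other lines was gammaA7, at 7.17 with the next line, betaD10, at 8.81. By mean signal gammaA7 was not the lowest, since its arrays differed widely. Without gammaA7 the difference was 2.90 (adjusted p = 0.0074).

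Several receptors and ligands were higher. Ackr3, a receptor that scavenges the chemokine Cxcl12, gave 628, 410 and 414 against a highest other line mean of 127 and a median of 51.6 (2.71, SE 0.55, adjusted p = 0.024). Hgf, the ligand of the receptor Met, was close to background in every other line (2.71 to 14.4), in the controls (7.35 and 18.5) and on the unnumbered A2C12 array (24.5), and was clearly up on the numbered ones (152 and 128). The difference was 1.59 (SE 0.20, adjusted p = 0.00089) and became 0.56 with unnumbered arrays only and 2.07 with numbered arrays only, called in neither. Vegfa, the endothelial growth factor, was even across the A2C12 arrays at 469, 470.4 and 481 against 61.7, 118 and 237 as lowest, median and highest elsewhere (1.74, SE 0.38, adjusted p = 0.034). These 2 were the called members of 31 tested receptor kinase and growth factor genes, whose median was 0.06. Over all tested genes 0.619% were called higher. Il4ra, the interleukin 4 receptor alpha chain, was higher by 2.05 (SE 0.47, adjusted p = 0.04), Ly75, an endocytic receptor, by 1.77 (SE 0.26, adjusted p = 0.0041) and Itga6, a laminin-binding integrin, by 1.88 (SE 0.32, adjusted p = 0.011). Itga6 was at 57.3 on the unnumbered array and at 241 and 236 on the numbered ones, all above the 2.33 to 41.1 of the other lines.

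Aldh3a1, an aldehyde dehydrogenase, was at 909 on the unnumbered array and 232 and 273 on the numbered ones, against 9.64 to 145 elsewhere (2.36, SE 0.44, adjusted p = 0.017). Egr2, a zinc finger factor of the immediate early response, was even, at 321, 306 and 272 against 21.7 to 113 (2.23, SE 0.33, adjusted p = 0.004), and was the 1 of 23 tested immediate early genes called; their median was -0.18. Ccn3, a matricellular protein, was at 181, 211 and 217 against 2.42 to 76.4 (2.23, SE 0.43, adjusted p = 0.017). The lipase inhibitor Angptl4 (2.04, and 1.25 by a second probe set, both called) and the focal adhesion protein Tes (1.88) complete the 12 largest rises. Leaving out 1 array or line at a time ended the call of Angptl4 in 7 cases (without the unnumbered A2C12 array, B3, betaD5, gammaA3, gammaB8, gammaD1 or gammaD12; adjusted p = 0.0522 to 0.0609). It ended that of Il4ra in 6 (the same without gammaD12; 0.0537 to 0.0684), and that of Tes in 7 (without a numbered A2C12 array, betaD5, gammaA3, gammaB8, gammaD1 or gammaD12; 0.0552 to 0.0701). Vegfa lost its call without gammaA3 or gammaB8 (adjusted p = 0.0526 and 0.055 as lowest and highest). The remaining named falls were Sox11, a transcription factor of development (31.5, 27.7 and 23.7 against 575 to 1806, with controls at 29.7 and 19.5; -3.83, SE 0.56, adjusted p = 0.0036), and Crmp1, a cytoskeletal phosphoprotein (-2.91, SE 0.55, adjusted p = 0.017). A second Sox11 probe set was not called (-1.69). Smaller falls named by the lists were Bid, a pro-apoptotic Bcl2 family member (-1.79), the interferon-induced Ifit2 (-1.53), the prostacyclin synthase Ptgis (-1.16) and the lysosomal membrane protein Lamp1 (-1.06). The Ptgis call was lost in 18 of 30 settings.

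The 2 probe sets with the largest rises carry no single gene name here and were singled out after their values were seen. Probe set 92665_f_at, whose annotation lists several symbols, gave 682, 739 and 825 in A2C12 and 0.554 to 11.7 in the other lines, with 262 and 78.4 in the controls (4.4, SE 0.20, adjusted p = 3.9e-08). It passed the filter on dim probe sets through the 3 A2C12 arrays and 0 other arrays, so its low level elsewhere was a condition for its being tested. Probe set 161046_at, with no symbol, gave 457, 428 and 443 against 2.98 to 47.3 (3.47, SE 0.34, adjusted p = 9.4e-05).

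Genes of the Myc and Raf pathways were not called between lines, though some lay outside the other lines. Myc, by probes that need not separate transgene from endogenous message, was at 496, 516 and 462 in A2C12, above the 223 to 409 of every other line, but was not called (0.61, SE 0.31, adjusted p = 0.35). Of 24 tested Myc family and target genes 0 were called (median 0.14). Mxd4, a Myc antagonist, was at 88.0, 73.6 and 68.1 against 138 to 464 (-1.47, SE 0.51, adjusted p = 0.17) and was called with unnumbered arrays only (-1.53, adjusted p = 0.047). Mycl, a Myc paralog singled out after its values were seen, was at 113, 149 and 97.6 against 13.8 to 72.2 (1.20, SE 0.39, adjusted p = 0.15). For both, all 3 A2C12 arrays lay outside every other line. Likewise, of 15 Raf-MAPK genes and outputs 0 were called (median 0.36). Of 33 cell cycle genes 0 were called between lines, with a median of 0.25. Between arrays 2 of them were higher, beside 2.04% of all tested probe sets. Top2a, the topoisomerase of dividing cells, was at 1529, 1674 and 1770 against 489 to 1077 (1.12, SE 0.40, adjusted p = 0.18). Of 12 p53 targets 0 were called and 10 lay below 0 (median -0.67), beside 48.3% below 0 and a median of 0.02 over all tested genes. The largest difference was that of the CDK inhibitor Cdkn1a, at 483, 295 and 373 against line mean signals of 613 to 1121 (-1.07, SE 0.40, adjusted p = 0.21). On the log2 scale this Cdkn1a probe set overlapped the other lines, with the unnumbered A2C12 array at 9.01 and the lowest line, B3, at 8.77. A second, dimmer Cdkn1a probe set lay below every other line on all 3 A2C12 arrays (-1.49, SE 0.51, adjusted p = 0.17). It was called lower between arrays but not between lines. Of 22 glycolysis and hypoxia genes Vegfa was called higher and the median was 0.34. An adjusted p above the threshold in these lists does not show that A2C12 was like the other lines.

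**Figure D4:**
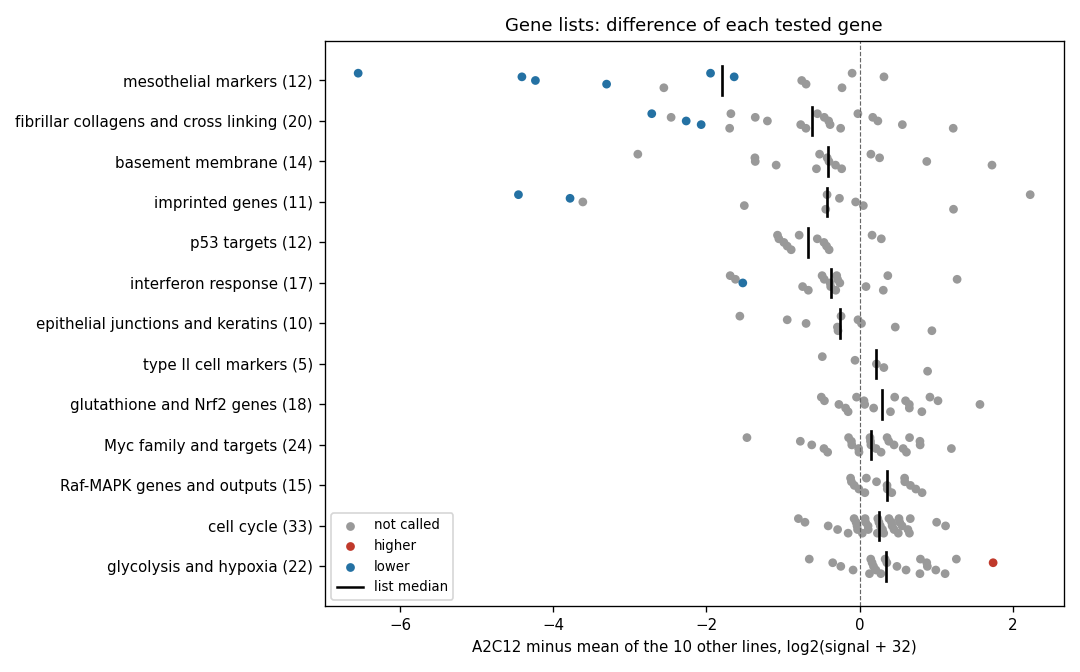
Difference between A2C12 and the mean of the 10 other lines, as log2(signal + 32) (x axis), for each tested gene of 13 lists; the number of genes is in brackets, black bars are list medians, blue points are called lower and red points called higher. Mesothelial markers reach from -6.55 to 0.32 with 6 called lower, and most other lists have 0 to 3 called genes.

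Called genes were set beside the controls to see on which side A2C12 fell. Of the 34 higher genes, 14 had both control arrays nearer to A2C12 (Gstk1, Lgals3, Egr2 and Ccn3 among them), 15 had both nearer to the other lines (Ackr3, Hgf, Vegfa and Itga6) and 5 were split. Of the 61 lower genes, 23 had both controls nearer to A2C12 (Peg3, Plac8, Sox11 and the 3 collagens), 27 nearer to the other lines (Aldh1a1, Cyba, Ivns1abp, Gata6 and Wt1) and 11 were split. The same split over all tested genes is not given here, so no rule about the side of A2C12 is drawn from these counts.

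By position in the genome (assembly GRCm38.p6), A2C12 lay farthest from the other lines on chromosomes 18, 8 and 14, a pattern described after it was seen and given without a test. Over all 5487 genes with a chromosome, A2C12 was the lowest of the 11 lines for 16.5% and the highest for 19.3%. On chromosome 18 it was the lowest for 55.9% of 136 genes, 89.7% of differences were below 0 and the median was -0.50 (unnumbered -0.59, replicate 1 -0.43, replicate 2 -0.49). On chromosome 8 it was the lowest for 48.3% of 302 genes, 80.1% were below 0 and the median was -0.34 (-0.48, -0.25 and -0.23). On chromosome 14 it was the highest for 42.6% of 183 genes, 21.9% were below 0 and the median was 0.36 (0.29, 0.38 and 0.36). All 3 arrays went the same way on each. The signs held after quantile normalization, median centring and with offsets of 1 and 100.

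Against the median line, the A2C12 median was -0.47 on chromosome 18, where the other lines lay between -0.17 and 0.23. It was -0.30 on chromosome 8, with the others between -0.08 and 0.16, and 0.32 on chromosome 14, with the others between -0.11 and 0.13. By this measure A2C12 lay outside all 10 other lines on 9 of 20 chromosomes. The other 6 deviations were smaller: 0.12 on chromosome 4, 0.10 on 10, 0.15 on 13, 0.15 on 15, -0.12 on 5 and -0.13 on 19. Other lines had shifts of their own, such as -0.33 for gammaD1 on the X chromosome and -0.25 for betaD5 on chromosome 9. The calls, which come from the same differences and are no separate support, were 0 higher and 4 lower of 136 genes on chromosome 18 (Gata6, Epb41l4a, Fam13b and Aldh7a1). They were 0 and 9 of 302 on chromosome 8 (Cyba, Cpe, Lamp1, Ank1, Gmip, Fam32a, Ces2g, Bcar1 and Hsbp1), and 4 and 0 of 183 on chromosome 14 (Lgals3, Gmfb, Ngdn and Ephx2). Over all tested genes 0.619% were called higher and 1.11% lower. Stretches of 25 neighbouring tested genes varied along each chromosome. In the lowest stretch on chromosome 18, from Cul2 to Rprd1a, all 25 were below 0 (median -0.72), and even its highest stretch, from Ppic to Tubb6, had a median of -0.22. On chromosome 8 the medians ran from -0.58 (Ier2 to Gnao1) to -0.09 (Tenm3 to Mef2b), and on chromosome 14 from 0.07 (Hmbox1 to Itm2b) to 0.52 (Styx to Tox4). Cyba and Gata6 fell by far more than the medians of their chromosomes.

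**Figure D5:**
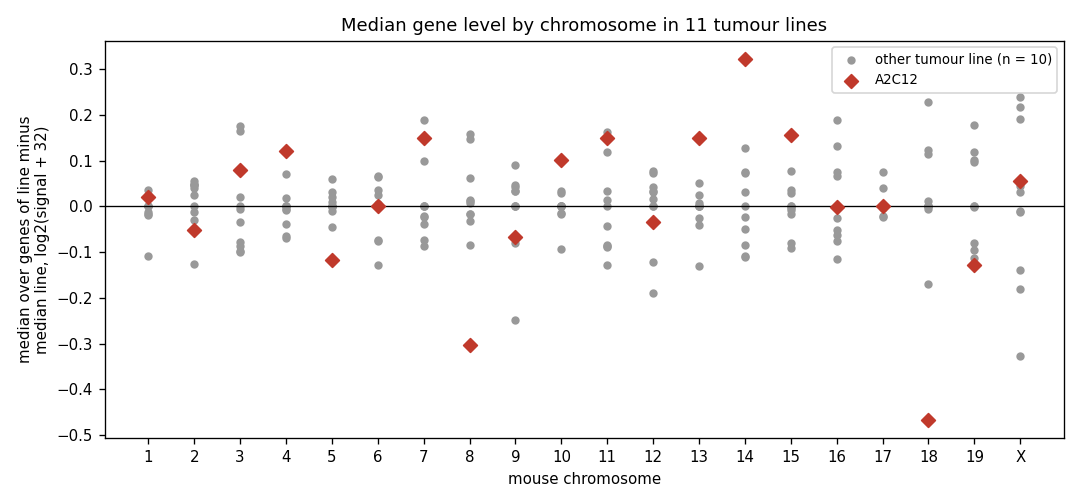
Median over tested genes of each line's level minus the median line, as log2(signal + 32) (y axis), for each mouse chromosome (x axis); red diamonds are A2C12 and grey points the 10 other lines. A2C12 lies outside all other lines at -0.47 on chromosome 18, -0.30 on chromosome 8 and 0.32 on chromosome 14.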

How the data were processed

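Per the submitters' processing notes, the deposited values are Affymetrix GCOS signals, without a version; the file holds 12488 probe sets for each of 24 arrays. The authors deposited these intensity values on a linear scale, scaled to one trimmed mean per array, as the values themselves show. Detection calls were not used here, so a low signal has no test of presence. After removal of 66 control probe sets, 10833 of 12422 had 1 gene symbol, 396 several and 1193 none in the annotation used, and 10817 matched RefSeq (GRCm38.p6).

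Signals were taken as log2(signal + 32). Repeat arrays were averaged per line, probe sets above their array's median on at least 2 of 22 tumour arrays were kept, and limma 3.58.1 (R 4.3.3) compared A2C12 with the other 10 line means (9 residual degrees of freedom, Benjamini-Hochberg adjustment over all tested probe sets). A second limma fit over arrays had 11. A call needed an adjusted p under 0.05 and 2-fold. The number of arrays limits the precision. Other offsets, scalings, filters, fold thresholds, kinds of array and left-out arrays or lines were tried. The procedure was tested on simulated data.

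Each gene is represented by its brightest tested probe set. Named genes are the 12 largest called rises and falls with all 3 arrays outside the other lines, up to 3 called members (or the largest change) of each of 49 lists, and Myc; 1 further gene of the rule is not reported here, and further probe sets of a named gene are given where they differ in direction or call. The line and the lists were chosen with earlier results of these data known.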

Additional observations from a re-analysis of the deposited data

Results flagged for a closer look

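Among 64 named genes, 6 had 1 of the 10 other lines far from the rest of them, with a gap to the nearest line, as a share of the whole range, past the 95% limit of Dixon's test; chance alone gives such a gap in about 1 in 20 groups. Galectin-3 (Lgals3) was lowest in gammaA7 by a gap of 0.51 of the range, at a log2 level of 7.17 with the next line at 8.81. Top2a was lowest in A2B1 (0.508, levels 8.55 and 9.34). The collagenase Mmp13 was lowest in betaD10 (0.467, levels 5.55 and 7.69) and Cd4 lowest in gammaD1 (0.467, levels 5.33 and 6.11). The macrophage receptor Csf1r was highest in betaD5 (0.494, levels 7.84 and 6.92) and the secretory factor Xbp1 lowest in the same line (0.474, levels 7.64 and 8.66). Of these genes Lgals3 was called in A2C12, and the other 5 were not.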

How the results depend on the processing

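Directions did not reverse for any of the 35 called named genes or the 4 counts under any setting tried. Counts of probe sets called between lines (44 higher and 73 lower) moved as follows. An offset of 1 gave 26 higher, no filter gave 26, a filter of 8 arrays gave 25, and a fold threshold of 4 gave 13 higher and 26 lower. Unnumbered arrays only gave 77 and 144, numbered arrays only 6 and 12, and the line as a random block 97 and 143. Leaving out each A2C12 array gave 37 to 67 higher and 75 to 89 lower, with 67 higher without the unnumbered array. Leaving out 1 other line gave 29 to 58 higher and 62 to 87 lower, with 29 higher without gammaA3. Chosen after seeing the data, omission of cRAF_cMYC and gammaA7 gave 89 higher, and of their numbered arrays 28 and 47. Counts between arrays (147 and 215) became 74 and 110 with an offset of 100, 498 and 530 at 1.5-fold, and 27 and 39 at 4-fold; leaving out an A2C12 array gave 114 to 171 and 180 to 206. To see whether the numbers pair the arrays, the difference of each array from its own line was correlated between lines. For arrays of different lines with the same number these differences correlated at 0.062 to 0.713. Of 30 pairs 24 were over 0.1, with all 10 unnumbered pairs at 0.182 to 0.547. Since 6 pairs were not, the numbers were not taken to pair the arrays. The replicate block, with the kind of array as a term, gave 149 and 216. Of 30 settings, Lgals3 lost its call in 21, Ptgis in 18, Tes in 15 and Angptl4 and Il4ra in 11 each. Leaving out 1 A2C12 array or 1 other line ended the calls of 7 named genes, at adjusted p = 0.0507 to 0.0728 except Lamp1, which fell under 2-fold. Centring moved the median difference of all probe sets from 0.01 to 0.04, the largest shift of the scalings. No detection calls were used, so signals near 0 have no order.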

Other observations

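The unnumbered A2C12 array differed from its numbered arrays by at least 2-fold upward for 101 tested probe sets and downward for 101, and these are values without a test. Higher on the unnumbered array were the following: the serum amyloid Saa3 was at 729 against 28.7 and 28.9 on replicates 1 and 2, the lipocalin Lcn2 at 321 against 4.10 and 12.7, the cytokine Il6 at 213 against 11.8 and 18.1, and the immediate early factor Fos at 462 against 28.4 and 25.6. Higher on the numbered arrays were the growth factor Bmp4, at 1089 and 1046 against 88.0, the sterol synthesis enzymes Hmgcs1, at 905 and 994 against 268, and Msmo1, at 727 and 698 against 144, and the homeobox gene Rhox5, at 389 and 452 against 31.7. The same kind of difference in the other 4 lines with an unnumbered and 2 numbered arrays correlated with that of A2C12 at 0.182 to 0.309 across probe sets. These genes were chosen after their values were seen.

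Further genes called in A2C12, also chosen after their values were seen, were the ecto-nucleotidase Nt5e, at 24.2, 22.8 and 4.30 against 151 to 483 in the other lines (-2.75, SE 0.50), the vasoconstrictor peptide Edn1, at 2.74, 9.02 and 10.6 against 96.3 to 508 (-2.51, SE 0.60), and the drug efflux pump Abcg2, at 51.5, 48.1 and 47.2 against 183 to 605 (-2.10, SE 0.45). Higher were the membrane protein Emp3, at 5549, 4508 and 4951 against 1142 to 2448 (1.6, SE 0.31), and the pyruvate dehydrogenase kinase Pdk4, at 90.5, 215 and 177 against 19.7 to 58.7 (1.55, SE 0.24).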
